A study of Mus musculus with 32 samples.

Results

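Enteric glia are the neural crest-derived support cells that surround neurons of the gut wall, and this report follows 7 genes that mark them: Sox10, Foxd3, Erbb3, S100b, Gfap, Fabp7 and Entpd2. The genes were taken as a named list, and each matched exactly 1 of the 51912 gene identifiers in the deposited count table. They were followed across 32 libraries of nuclear RNA in 8 groups of 4. Mice of strain C57BL/6, kept specific pathogen-free, had received the virus AAV9-CaMKII-EGFPKASH into a vein 5 weeks before collection. That virus carries a green fluorescent protein, EGFP, under a CaMKII promoter, with a KASH domain that holds the protein at the nuclear envelope. Nuclei came from the outer muscle layer of the gut with the myenteric plexus and were sorted into EGFP-positive (labelled neuronal) and EGFP-negative (labelled non-neuronal) fractions. Each fraction was sampled from the colon and from the small intestine (SI) of mice housed at the University of Bern or at the Francis Crick Institute. All 8 groups therefore share the strain, the hygiene status and the virus. The non-neuronal fraction holds every nucleus without EGFP, so it is a mixture of glia with muscle, connective tissue, vessel, immune and epithelial nuclei. Neuronal marker RNA was also present in it, as given below.

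Glia of the gut arise from neural crest cells under the transcription factor SOX10, which stays on in mature glia and switches off in most neurons. FOXD3 is a second crest factor, and ERBB3 is the receptor by which crest and glial cells read neuregulins. S100B, a calcium-binding protein, GFAP, an intermediate filament protein, and FABP7, a brain-type fatty acid carrier, are the usual glial labels, while ENTPD2 is a surface enzyme that breaks down extracellular ATP.

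Library totals ran from 2394513 to 8350887 estimated counts, with 2394513 to 4618395 in the 16 Bern libraries and 3788206 to 8350887 in the 16 Crick libraries. The unit of level below is CPM, the count that a gene would have in a library of 1000000 counts, with library sizes corrected by TMM. The labels do not say whether libraries of a group came from separate animals, so the p-values measure the spread between these libraries. Of the 32 libraries, 6 had been found to stand apart when these data were first examined (Bern non-neuronal colon replicates 1 and 2, Bern non-neuronal SI replicate 1, Crick non-neuronal colon replicate 3, Crick non-neuronal SI replicate 2 and Crick neuronal SI replicate 2), and calls of members that are lost without them are given beside the results. Averaged over facilities and segments, the 10 pan-neuronal markers (such as Elavl4 and Snap25) all rose in the neuronal fraction. Singly, 7 passed in Bern colon and 9 in Crick colon. Their sum was 2420 to 5283 CPM in neuronal and 71.2 to 1505 CPM in non-neuronal nuclei. Markers of interstitial cells of Cajal (Kit, Ano1, Prkcq and Etv1) summed to 661 to 2325 CPM in Bern neuronal SI. Crick neuronal SI had 1192 to 1891 CPM, and non-neuronal SI 238 to 1149 (Bern) and 242 to 830 CPM (Crick). In each SI 2 of the 4 passed as higher, and in each colon 1 passed as higher and 3 as lower. The part of these cells was not tested.

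The annotation (GENCODE M21, build GRCm38) placed the crest genes Sox10 (ENSMUSG00000033006) at chr15:79154908-79165240 on the minus strand and Foxd3 (ENSMUSG00000067261) at chr4:99656299-99658622 on the plus strand. Erbb3 (ENSMUSG00000018166) lies at chr10:128567523-128589652 on the minus strand. S100b (ENSMUSG00000033208) lies at chr10:76253853-76261159 and Fabp7 (ENSMUSG00000019874) at chr10:57784881-57788450, both on the plus strand. Gfap (ENSMUSG00000020932) lies at chr11:102887336-102900912 on the minus strand and Entpd2 (ENSMUSG00000015085) at chr2:25395874-25401321 on the plus strand. Values are sums over all exons of a gene. Entpd2 shares 612 exon bases with Npdc1, a gene on the same strand, and its estimated counts held decimals in 13 libraries, so reads could be split between the pair and Entpd2 values are uncertain to that extent. Foxd3 shares 89 exon bases with a microRNA gene that had 0 counts in all libraries. The other members share no exon bases with another gene.

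Promoter sequences are shown for Entpd2 and Fabp7, because these 2 members alone passed the test between colon and SI, in opposite directions. The windows are the 250 bases before each gene's start in RefSeq (build GRCm38.p6, plus strand), shown for chr2:25395624-25395873 and chr10:57784673-57784880. The last 42 bases before the RefSeq start of Fabp7 are left out because GENCODE counts them as exon. Capitals mark the GC box (the word GGGCGG) in the first and the CCAAT box, here on the minus strand, in the second.
Entpd2: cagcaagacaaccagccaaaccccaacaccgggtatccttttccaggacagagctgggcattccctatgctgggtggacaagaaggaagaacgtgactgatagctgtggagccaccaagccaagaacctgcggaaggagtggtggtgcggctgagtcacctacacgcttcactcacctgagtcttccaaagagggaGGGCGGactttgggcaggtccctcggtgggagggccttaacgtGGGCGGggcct
Fabp7: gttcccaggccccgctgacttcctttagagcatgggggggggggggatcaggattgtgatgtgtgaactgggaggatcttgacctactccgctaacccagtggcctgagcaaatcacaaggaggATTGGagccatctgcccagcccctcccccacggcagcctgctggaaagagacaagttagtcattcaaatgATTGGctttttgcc
Over the 250 bases and on both strands, 5 motifs were searched: these boxes, the TATA-type word TATAAA, then the SOX-type word ACAAAG with its relative ACAATG. The Entpd2 window holds the GC box 2 times, 54 to 49 and 11 to 6 bases before the start, and no CCAAT box. The Fabp7 window holds the CCAAT box 2 times, 126 to 122 and 56 to 52 bases before the start, and no GC box. Of the 32851 promoter windows in the RefSeq table, 32.7% hold the GC box and 33.8% the CCAAT box. S100b, with 2 CCAAT boxes, was the only other member with a match among the 5 in the table, which also holds Gfap and Foxd3. The TATA-type word is in 12.4% of all windows, and the 2 SOX-type words are in 16.5% and 10.7%. None of the 3 was in these 5 windows, which says only that those letters are not in these 250 bases.

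The first comparison, neuronal against non-neuronal nuclei, asks where the glial genes lie between the sorted fractions. Averaged over the 4 strata (each facility with each segment), all 7 members had lower fitted levels in neuronal nuclei, and 6 of them (all but Entpd2) passed edgeR's quasi-likelihood test with Benjamini-Hochberg adjustment at 0.05. Of all 21521 genes tested, 21.6% passed as lower and 43.5% passed in either direction. The median log2 fold change of the 7 members was -3.48, beside -0.01 over all genes tested. It was -2.93 when the strata in which a gene had no count in neuronal nuclei were set to the bound that 3 counts allow. A fall of this size was not particular to the members. Marker medians were -3.55 for smooth muscle, -3.74 for macrophages, -4.32 for endothelium, -4.73 for epithelium, -4.745 for fibroblasts and -5.67 for mesothelium. Nearer 0 were interstitial cells of Cajal (-1.63), Schwann and oligodendrocyte genes (-1.25) and melanocyte markers (0.07). In bulk nuclei a lower level can mean fewer glial nuclei in the fraction or less RNA in each, and these cannot be told apart.

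Sox10, the master factor of the glial lineage, was present in all 16 non-neuronal libraries. In Bern its levels were 63.3, 52.9, 42.2 and 22.6 CPM in the colon and 72.8, 0.796, 41.1 and 14.9 CPM in the SI (replicates 1 to 4). At the Crick they were 8.46, 13.2, 16.6 and 26 CPM in the colon and 28.4, 52.5, 27.9 and 26.5 CPM in the SI. The Bern SI library at 0.796 CPM, replicate 2, held only 2 Sox10 counts. Neuronal nuclei had 12.7, 0, 0 and 7.28 CPM in Bern colon, 8.81, 14.7, 1.55 and 0.584 CPM in Bern SI, and between 0 and 2.85 CPM in the 8 Crick libraries. Sox10 fell by 3.56 ± 0.54 on the log2 scale (SE; adjusted p = 9.29e-07, edgeR) and passed singly in Bern colon, Crick colon and Crick SI. The calls in Bern colon and Crick SI were lost without the libraries that stood apart (adjusted p = 0.12 and 0.0682), and that in Bern colon also without Bern neuronal colon replicate 2 or 3. The 2 fractions did not overlap in Bern colon, Crick colon or Crick SI, and in Bern SI only replicate 2 lay within the neuronal range.

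Foxd3, the other crest factor, was scarce throughout. Non-neuronal nuclei had 25.3, 0, 4.64 and 4.79 CPM in Bern colon, 0.360, 2.79, 1.18 and 0 CPM in Bern SI, 0.668, 2.79, 2.45 and 4.72 CPM in Crick colon and 3.07, 9.09, 2.05 and 4.73 CPM in Crick SI. In neuronal nuclei it was at 0 in 7 of 16 libraries and at most 1.53 CPM. Foxd3 fell by 2.93 ± 0.73 on the log2 scale (adjusted p = 0.00105, edgeR). The fractions were apart without overlap only in Crick SI, and Bern colon replicate 1 alone held 74 of the 113 Foxd3 counts of its group. Bern colon was the stratum in which Foxd3 passed by itself, and that call was lost without this library or any of the neuronal replicates 1, 2 and 4 (highest adjusted p 0.16), and without the libraries that stood apart (0.117).

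Erbb3, the neuregulin receptor, had the highest non-neuronal level of the 7 per length of exon: 12.3 ± 6.17 CPM per kilobase (mean ± SD, n = 16 libraries). Sox10 followed with 10.4 ± 6.71, Entpd2 with 7.95 ± 7.80, S100b with 4.44 ± 4.44, Fabp7 with 3.6 ± 5.21, Gfap with 2.79 ± 2.21 and Foxd3 with 1.85 ± 2.62 CPM per kilobase. Neighbours in this order lay within each other's SD. Erbb3 stood at 71.2, 120, 46.4 and 41.3 CPM in Bern colon, 44.7, 1.59, 141 and 43.1 CPM in Bern SI, 96.6, 48.1, 56.8 and 128 CPM in Crick colon, and 94.6, 84.4, 88.5 and 75.2 CPM in Crick SI. Neuronal nuclei ranged from 0.384 to 11.4 CPM with a median of 4.76 CPM, and none was at 0. Erbb3 fell by 3.73 ± 0.39 on the log2 scale (adjusted p = 3.64e-10, edgeR), and it passed in each of the 4 strata. Only Bern SI replicate 2, with 4 counts, lay within the neuronal range of its stratum.

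Erbb3 is also made by gut epithelium, and epithelial RNA was present in the non-neuronal fraction. The 10 epithelial markers summed to 178 to 11950 CPM there and to 9.93 to 74.2 CPM in neuronal nuclei, and 8 of the 10 (Muc2 and Epcam among them) fell in neuronal nuclei. The colon held 1481 to 11950 CPM of these markers in Bern and 2446 to 9186 CPM at the Crick, against 405 to 894 CPM and 178 to 964 CPM in the SI. Erbb3 differed by 0.02 ± 0.46 on the log2 scale between colon and SI (adjusted p = 0.99, edgeR). The part of epithelial RNA in the Erbb3 level was not tested.

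S100b had the weakest separation of the members that passed. In non-neuronal nuclei it was at 26.4, 0.837, 2.58 and 4.34 CPM in Bern colon and 16.2, 0, 0 and 4.10 CPM in Bern SI. The Crick libraries were even, with 3.79, 5.76, 5.72 and 6.49 CPM in colon and 6.53, 9.35, 7.79 and 5.54 CPM in SI. Neuronal nuclei held 0 to 3.45 CPM in Bern and 1.15 to 4.63 CPM at the Crick. The fractions overlapped in every stratum except Crick SI. S100b fell by 1.81 ± 0.63 on the log2 scale (adjusted p = 0.017, edgeR) over the 4 strata and passed in none of them singly. The call was lost without Bern non-neuronal colon replicate 1 or Bern non-neuronal SI replicate 1, where adjusted p reached up to 0.068, without the libraries that stood apart (log2 change -1.0, adjusted p = 0.265) and with the replicate number as a block (-1.38, adjusted p = 0.0729).

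Gfap, the glial filament gene, had the lowest neuronal mean per length of the 7, at 0.159 ± 0.202 CPM per kilobase (SD, n = 16). Non-neuronal nuclei had 30.8, 2.09, 18.3 and 6.62 CPM in Bern colon and 1.08, 16.3, 0 and 0.769 CPM in Bern SI. Crick libraries had 5.12, 14.5, 7.15 and 23.7 CPM in colon and 14.2, 17.1, 7.79 and 22.7 CPM in SI. In neuronal nuclei Gfap had no count in the 4 Bern colon libraries, 0 to 0.775 CPM in Bern SI, 0.865 to 1.41 CPM in Crick colon and 0.125 to 3.01 CPM in Crick SI. All but the Bern SI stratum separated without overlap. Gfap fell by 4.94 ± 0.70 on the log2 scale (adjusted p = 4.1e-07, edgeR) and passed in each of the 4 strata. The mean log2 change was -4.16 with Bern colon, where neuronal nuclei had no count, set to the bound that 3 counts allow. Against the floor of 3 counts over the group (0.207 CPM), pooled Gfap was at least 60.5-fold higher in non-neuronal than in neuronal Bern colon nuclei. In Bern SI the call rested on replicate 2: it held 41 of the 47 Gfap counts, and without it adjusted p was 0.652. The Crick SI call (adjusted p = 0.0485) was lost under 18 of 32 single omissions, the Crick colon call under 6 and the Bern SI call under 3. Crick SI gave an adjusted p of 0.0615 without the libraries that stood apart and 0.0527 with library sizes that leave out mitochondrially encoded genes.

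Fabp7 was low but lower still in neuronal nuclei. Its non-neuronal levels were 0, 0.209, 0.515 and 1.60 CPM in Bern colon, 2.52, 26.7, 1.18 and 3.59 CPM in Bern SI, 1.56, 2.42, 3.27 and 0.826 CPM in Crick colon and 9.79, 5.46, 5.33 and 7.17 CPM in Crick SI. In neuronal nuclei it was at 0 in 7 of 16 libraries, among them the 4 of Bern colon, and at most 1.13 CPM. SI libraries of both facilities separated the fractions without overlap, and colon libraries did not. Fabp7 fell by 3.48 ± 0.68 on the log2 scale (adjusted p = 6.96e-05, edgeR). The mean log2 change over the strata was -2.75 with Bern colon set to the bound that 3 counts allow. In Bern colon it was pooled at least 3.02-fold higher in non-neuronal nuclei, from 10 counts against 0, and that call was lost under 14 of 32 single omissions. In Bern SI the call was lost without non-neuronal replicate 2 (adjusted p = 0.132).

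Entpd2, the ATP-degrading enzyme, did not pass over the 4 strata (log2 change -1.87 ± 0.95, adjusted p = 0.112, edgeR), and its strata went in different directions. Non-neuronal nuclei had 65.4, 22.8, 24.2 and 4.11 CPM in Bern colon, 7.79, 19.0, 19.4 and 20.6 CPM in Crick colon and 19.2, 16.4, 17.6 and 33.8 CPM in Crick SI. Bern SI stood apart with 0.360, 0, 0 and 0 CPM, which is 1 count in 4 libraries. Neuronal libraries were at 0 to 2.18 CPM apart from Bern colon replicate 4 at 11.7 CPM and Bern SI replicate 3 at 5.43 CPM. At the Crick the fractions did not overlap in either segment, and Entpd2 fell there by 3.84 ± 1.28 in colon (adjusted p = 0.0306) and by 4.31 ± 1.3 in SI (adjusted p = 0.0235). Both calls were lost without the libraries that stood apart (adjusted p = 0.0755 and 0.0661), and under 6 and 4 single omissions. In Bern colon the log2 change was -3.23 ± 1.23 (adjusted p = 0.05, not under the threshold), and in Bern SI it was 3.9 ± 1.68 (adjusted p = 0.0753). Both passed with DESeq2 (adjusted p = 0.0158 and 0.0343), the second as higher in neuronal nuclei. The call over the 4 strata depended on the tool and on 1 library: it passed with DESeq2 (-1.93, adjusted p = 0.00591), with limma-voom (-3.13, adjusted p = 2.62e-05) and without Bern neuronal colon replicate 4 (adjusted p = 0.0144).

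**Figure D1:**
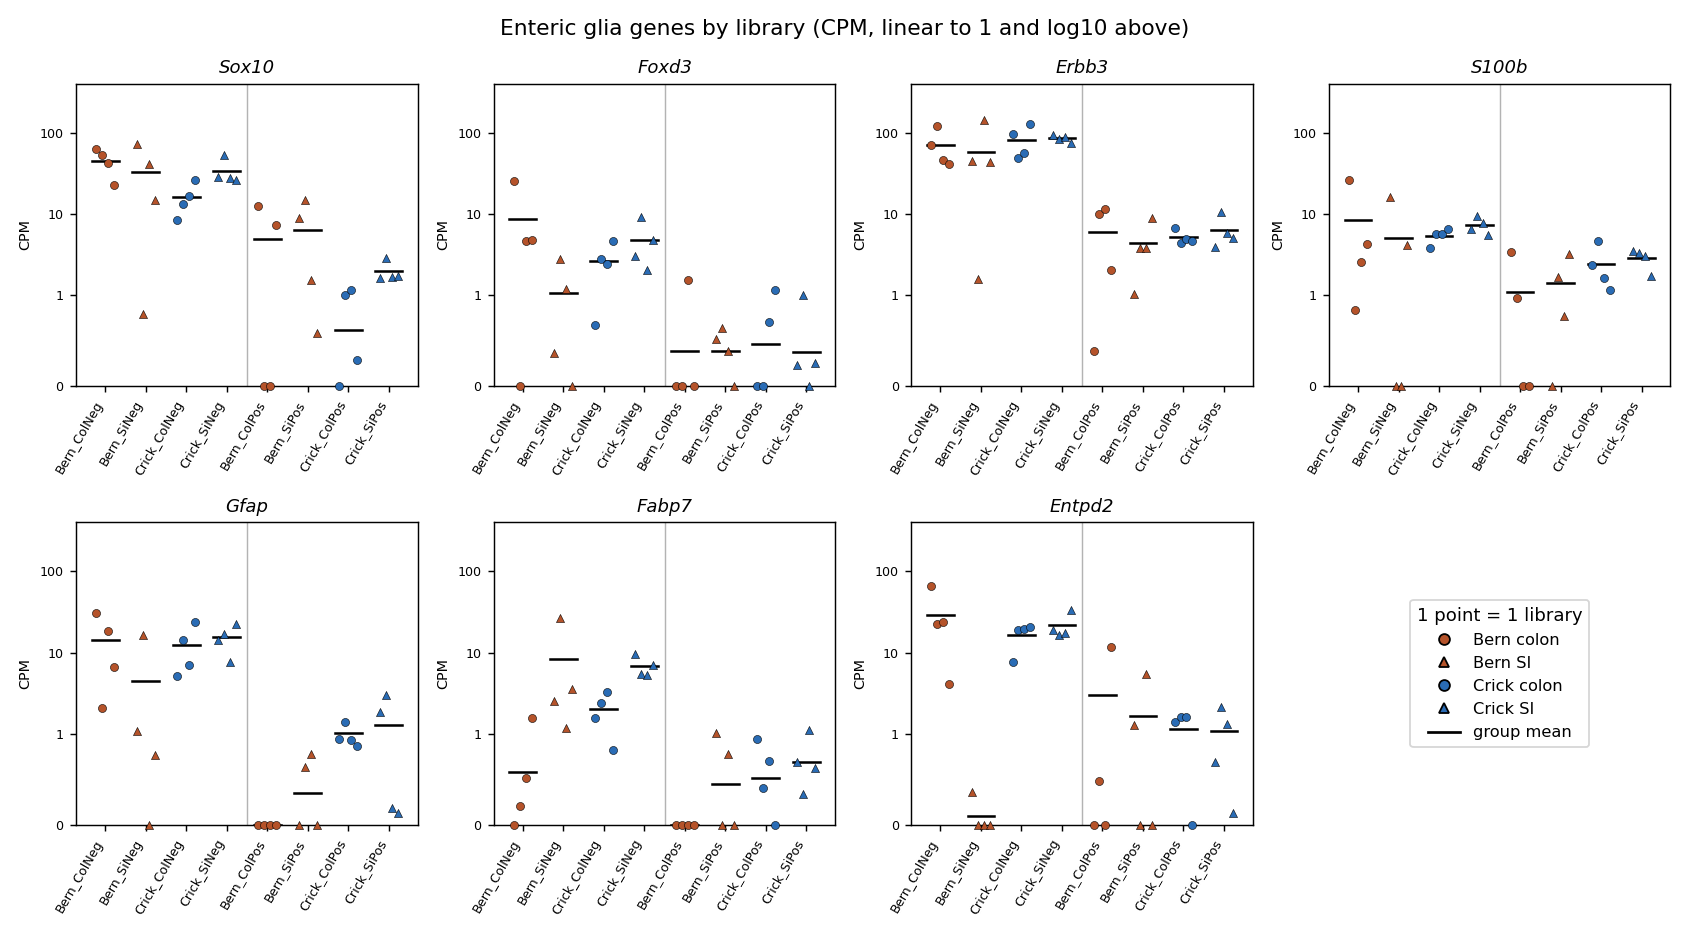
Level of each member in each library, in CPM on an axis that is linear from 0 to 1 and log10 above. Points are libraries (circles colon, triangles SI, brown Bern, blue Crick), bars are group means, and the grey line parts non-neuronal (left) from neuronal groups; Bern points scatter more widely than Crick points, and Entpd2 lies at or near 0 in the 4 Bern non-neuronal SI libraries.

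By stratum, 5 members passed as lower in Bern colon (14.9% of all genes), 3 in Bern SI (12.9%), 4 in Crick colon (11.2%) and 4 in Crick SI (5.06%). Erbb3 and Gfap passed in all 4. Levels of the 2 fractions did not overlap for 3 members in Bern colon, 1 in Bern SI, 4 in Crick colon and all 7 in Crick SI. The share of all genes without overlap was not counted, so these numbers describe the members alone and are not read as particular to them. Leaving out single libraries moved these counts: Bern colon dropped to 2 members without its neuronal replicate 2 and to 3 without its neuronal replicate 3. Crick colon dropped to 2 members without its non-neuronal replicate 4 or any of its 4 neuronal libraries, and Crick SI to 2 without its non-neuronal replicate 4 or its neuronal replicates 1, 3 or 4. Whether the sort difference itself varied was tested as an interaction. No member passed for segment, where 6.48% of all genes passed, and none for facility, where 0.204% passed (edgeR). Gfap and Entpd2 had an unadjusted p under 0.05 in both, as did 19.8% of all genes for segment and 13.9% for facility. By DESeq2 the facility interaction passed for Entpd2 (log2 difference 4.46, adjusted p = 0.0228), and the segment interaction passed for Gfap without Bern non-neuronal SI replicate 2 (adjusted p = 0.0359) and for Entpd2 without Bern neuronal colon replicate 4 (adjusted p = 0.00992).

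**Figure D2:**
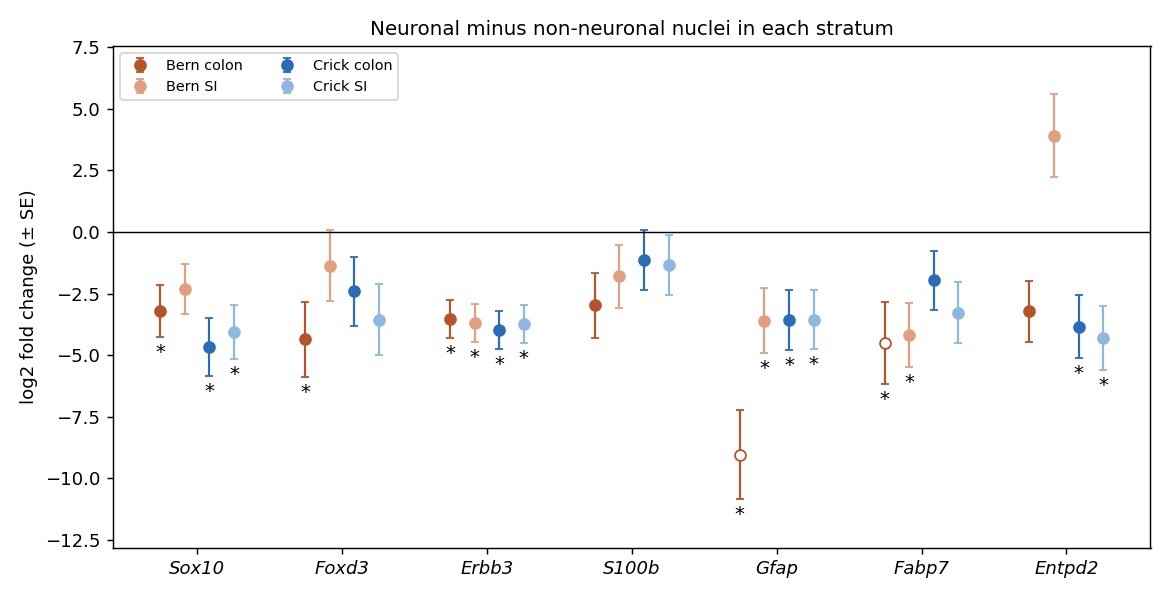
Fitted log2 fold change of neuronal minus non-neuronal nuclei (vertical axis, bars are SE) for each member in each stratum of 4 against 4 libraries. Stars mark adjusted p under 0.05 by edgeR and open points mark strata with no count in neuronal nuclei, where the fitted size is no bound; all points lie below 0 except Entpd2 in Bern SI at 3.9.

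Ranked by mean level over the 8 groups, all 4 non-neuronal groups stood above all 4 neuronal groups for Sox10, Foxd3, Erbb3, S100b and Gfap. The leading group was Bern colon for Sox10 (45.3 ± 17.4 CPM), Foxd3 (8.69 ± 11.3) and S100b (8.53 ± 12), and Crick SI for Erbb3 (85.7 ± 8.17) and Gfap (15.5 ± 6.22; SD, n = 4 each). Fabp7 broke this order because its Bern non-neuronal colon mean (0.581 CPM) lay under its Crick neuronal SI mean (0.696 CPM). Entpd2 broke it because Bern non-neuronal SI (0.0901 CPM) was its lowest group of all. Library ranges of groups next to each other in these orders overlapped, except Crick neuronal SI over Crick neuronal colon for Sox10, Crick neuronal colon over Bern neuronal SI for Gfap, and Crick non-neuronal SI over Crick non-neuronal colon for Fabp7.

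Other genes of glia and of the members' pathways were read beside them. Of 11 further enteric glia genes, 10 could be tested and 9 fell in neuronal nuclei, led by Cdh19 (-4.88), Slc1a3 (-4.03), Lgi4 (-3.59) and Gpr37l1 (-3.36 on the log2 scale). Ngfr, the low-affinity neurotrophin receptor that neurons can also make, was the tested gene that did not pass (0.57, adjusted p = 0.108). In Bern SI alone Ngfr passed as higher in neuronal nuclei (2.125 ± 0.597, adjusted p = 0.00678, edgeR). By stratum, 7 of the 10 tested fell in Bern colon, 3 in Bern SI, 4 in Crick colon and 4 in Crick SI. Among 13 neuregulin and ErbB genes, 3 rose and 5 fell. Erbb2, the partner that ERBB3 needs for signalling, fell by 4.14 ± 0.58 over the 4 strata, while the ligand genes Nrg1 and Nrg3 rose by 3.93 ± 0.32 and 3.91 ± 0.31 on the log2 scale. By stratum Erbb2 passed in Bern colon (-5.81) and Crick colon (-5.42), and not in Bern SI (-2.50, adjusted p = 0.0676) or Crick SI (-2.84, adjusted p = 0.0785). Gut epithelium also makes Erbb2, and the colon strata held more epithelial marker RNA, as given above for Erbb3; its part was not tested.

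Genes that act on extracellular nucleotides, as Entpd2 does, went both ways. Of 13 extracellular nucleotide genes, 4 rose and 5 fell: the ectonucleotidases Entpd8 and Entpd1 fell by 6.13 ± 0.74 and 3.43 ± 0.35, whereas Entpd3 and the ATP-gated channel gene P2rx2 rose by 4.93 ± 0.34 and 3.66 ± 0.33. Among 12 crest transcription factors, 11 could be tested, 4 fell (Sox9 by 4.17, Sox5 by 3.94) and 2 rose. Filament genes divided evenly, with 4 of 8 higher in neuronal nuclei (Prph and Ina, both neuronal filament genes, by 4.84 and 4.6) and 4 lower (Nes by 4.06). S100a4 and S100a6 rose by 2.92 and 0.80, opposite to S100b, and none of the 7 tested S100 genes fell. In the fatty acid binding family, Fabp4, Fabp2 and Fabp1 fell with Fabp7, and Fabp3 was among 2 that rose.

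Because Sox10, Foxd3 and Erbb3 also belong to Schwann cells and melanocytes, markers of those cells were measured, with oligodendrocyte genes beside them. Of the oligodendrocyte genes, Olig1 and Olig2 were at 0 in 15 and 14 of the 16 non-neuronal libraries, and Mog was at most 0.668 CPM. Mobp, by contrast, was at 0 in only 6 of the 16, with a mean of 1.92 CPM and up to 12.4 CPM. These genes do not mark Schwann cells. Of the melanocyte markers, the pigment gene Mlana was at 0 in 14 of them, Pmel reached 12.6 CPM, and Mitf, a transcription factor that other cells also make, was present in all 16 (up to 96.2 CPM). Mitf fell by 1.79 ± 0.40 in neuronal nuclei (adjusted p = 0.000289, edgeR), as the only one of 3 tested melanocyte markers, and the 6 summed to 3.61 to 102 CPM in non-neuronal and 1.3 to 23.6 CPM in neuronal libraries. Prx, a protein of myelinating Schwann cells, reached 24.5 CPM, Egr2 18.7 CPM and Mbp 106 CPM in single non-neuronal libraries. Pmp22 was the most abundant gene of the list and was present in every library. Its mean was 156 CPM in non-neuronal (15.9 to 336 CPM) and 86.85 CPM in neuronal nuclei (31.7 to 219 CPM). Ncmap, Mag and Mog had higher means in neuronal nuclei (2.48, 1.096 and 0.265 CPM) than in non-neuronal nuclei (0.892, 0.974 and 0.156 CPM). Of 10 Schwann and oligodendrocyte genes 6 could be tested, and 4 fell in neuronal nuclei. The summed levels of the Schwann and oligodendrocyte genes were 44.4 to 444 CPM in the non-neuronal and 53.5 to 237 CPM in the neuronal fraction, and the part of either cell type in the Sox10, Foxd3 and Erbb3 results was not tested.

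The second comparison set colon against SI in the 16 non-neuronal libraries. Among 7 members, 1 was higher in colon (Entpd2) and 1 lower (Fabp7), while Sox10, Foxd3, Erbb3, S100b and Gfap did not pass. Of all 19164 genes tested, 5.79% passed as higher and 3.54% as lower, together 9.32%. The members' median log2 change was 0.09, beside 0.02 over all genes. Within Bern, Entpd2 and Fabp7 passed by themselves (10.1% of all genes), and within the Crick no member passed (0.256%).

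For Entpd2, the library values given above show a colon that overlapped between facilities and an SI that did not. The mean level was 29.1 ± 25.9 CPM in Bern colon, 16.7 ± 5.98 CPM in Crick colon, 21.7 ± 8.12 CPM in Crick SI and 0.0901 ± 0.180 CPM in Bern SI (SD, n = 4 each). Entpd2 was higher in colon by 3.77 ± 0.69 on the log2 scale averaged over facilities (adjusted p = 0.00157, edgeR). Within Bern the difference was 7.95 ± 1.16 (adjusted p = 0.000416), and within the Crick it was -0.41 ± 0.76 (adjusted p = 1). From the pooled counts, 412 in Bern colon against 1 in Bern SI, the ratio was 324 with an exact 95% counting interval from 57.9 to 12840. The interaction of segment with facility was 8.36 ± 1.38 for Entpd2, with an adjusted p of 0.072. With edgeR 0 of 19164 genes passed this interaction, 2015 had an unadjusted p under 0.05, and DESeq2 called 329. DESeq2 called Entpd2 among them (adjusted p = 2.14e-06), as did edgeR without the filter on low counts (0.000133), the fit of all 32 libraries (0.0392), and the fits without Bern non-neuronal colon replicate 4 or without Bern non-neuronal SI replicate 1 (lowest adjusted p = 0.0182).

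Npdc1, which shares exon bases with Entpd2, did not follow it. In Bern SI non-neuronal nuclei Npdc1 was at 93.7, 14.3, 80.5 and 88.0 CPM while Entpd2 was at or near 0. Bern colon had 64.0, 73.8, 59.8 and 53.0 CPM of Npdc1, and the Crick libraries had 26.3 to 87.9 CPM in colon and 29.1 to 53.5 CPM in SI. Neuronal nuclei, where Entpd2 was low, had 40.2 to 230 CPM of Npdc1. How the counting divided reads between the pair was not tested.

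Other features of the libraries also differed between the non-neuronal groups, not always in step with Entpd2. Mitochondrially encoded RNA summed to 22300 to 38480 CPM in Bern non-neuronal SI, 6563 to 11320 CPM in Bern colon and 4970 to 9409 CPM in Crick colon. Crick SI spanned 4232 to 40080 CPM, and its library at 40080 CPM, replicate 2, had 16.4 CPM of Entpd2. Pan-neuronal RNA in the non-neuronal fraction was 754 to 1505 CPM in Bern colon, 71.2 to 810 CPM in Bern SI, 180 to 411 CPM in Crick colon and 95.9 to 172 CPM in Crick SI. The part of these in the Entpd2 result was not tested. Bern SI replicate 1, the library with 810 CPM of neuronal markers, held the single Entpd2 count, and it also had 72.8 CPM of Sox10 and 16.2 CPM of S100b.

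**Figure D3:**
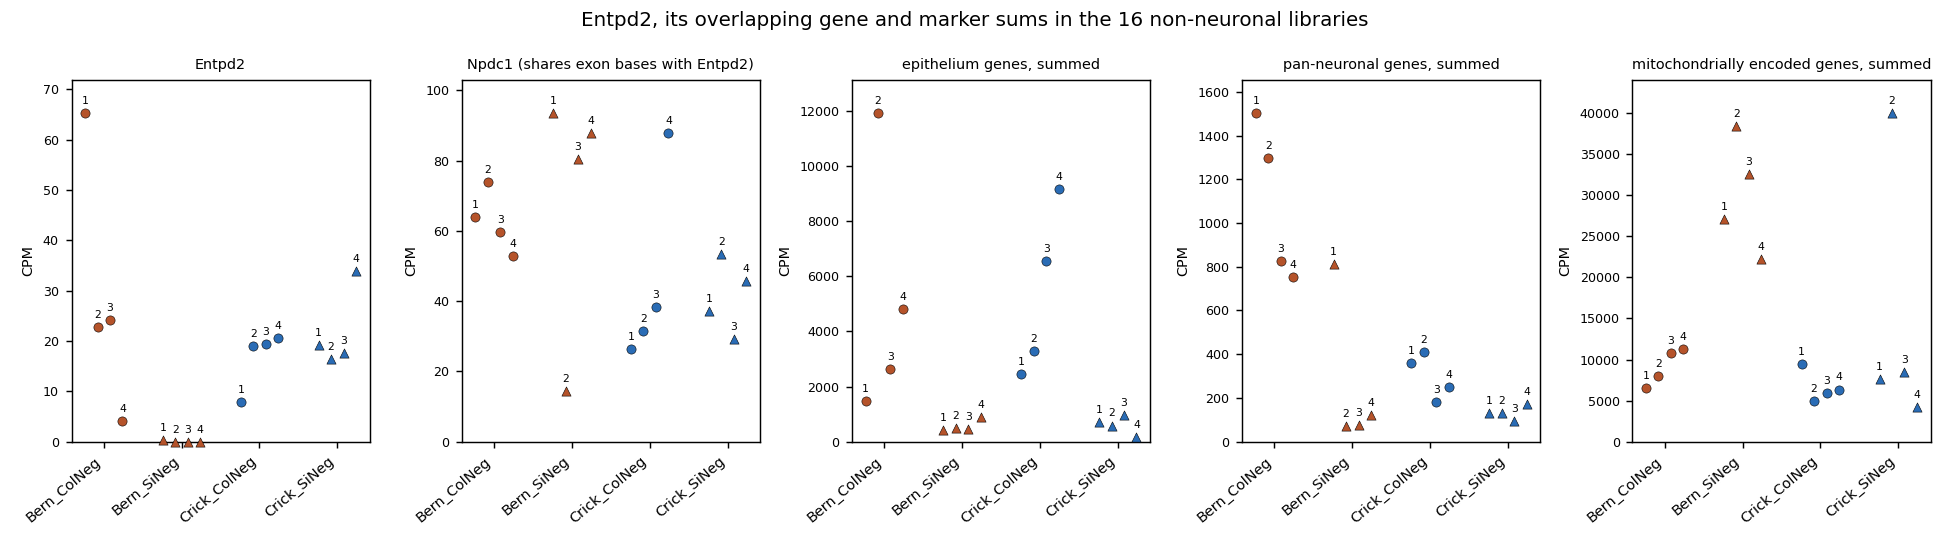
Entpd2, Npdc1 and summed epithelial, neuronal and mitochondrial marker levels (CPM, linear axes from 0) in the 16 non-neuronal libraries, numbered by replicate. Entpd2 lies at 0 to 0.360 CPM in Bern SI, where Npdc1 lies between 14.3 and 93.7 CPM.

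Fabp7, by contrast, was higher in SI. Its mean was 8.49 ± 12.2 CPM in Bern SI and 6.93 ± 2.08 CPM in Crick SI, against 0.581 ± 0.711 CPM in Bern colon and 2.02 ± 1.06 CPM in Crick colon (SD, n = 4 each). At the Crick all 4 SI libraries (5.33 to 9.79 CPM) lay above all 4 colon libraries (0.826 to 3.27 CPM). In Bern 3 of the 4 SI libraries lay above every colon library, and the Bern SI mean was carried by replicate 2 at 26.7 CPM. Fabp7 was lower in colon by -2.86 ± 0.84 on the log2 scale (adjusted p = 0.033, edgeR), with -3.91 ± 1.25 in Bern (adjusted p = 0.0481) and -1.81 ± 1.12 at the Crick (adjusted p = 1). The Bern call was lost under 12 of 16 single omissions, without the libraries that stood apart (0.197), with limma-voom (0.0558), without the filter on low counts (0.0751) and with library sizes that leave out mitochondrially encoded genes (0.0502). The Bern and Crick differences were not shown to differ (interaction -2.11 ± 1.58, adjusted p = 0.695). The averaged call was lost when any of 12 of the 16 libraries was left out: Bern colon replicates 1, 2 and 3, Bern SI replicate 2, and every Crick library (log2 change from -3.44 to -1.95 over all 16 omissions). It was also lost without the filter on low counts (adjusted p = 0.0515) and without the libraries that stood apart (0.117). With the replicate number as a block, the averaged call (adjusted p = 0.102, edgeR) and the Bern call (0.179) were both lost.

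The members that did not pass between segments kept wide errors. Sox10 differed by -0.36 ± 0.52, S100b by 0.09 ± 0.86, Gfap by 0.59 ± 0.76 and Foxd3 by 0.99 ± 0.90 on the log2 scale (adjusted p from 0.556 to 0.971, edgeR). Sox10 ran from 8.46 to 26 CPM in Crick colon and from 26.5 to 52.5 CPM in Crick SI, ranges that did not overlap, with a log2 change of -1.11 ± 0.74 (adjusted p = 1). In Bern the Sox10 ranges overlapped. Gfap passed within Bern (4.39, adjusted p = 0.0258) when SI replicate 2 was left out, and its change with all libraries was 1.51 ± 1.11 (adjusted p = 0.407).

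**Figure D4:**
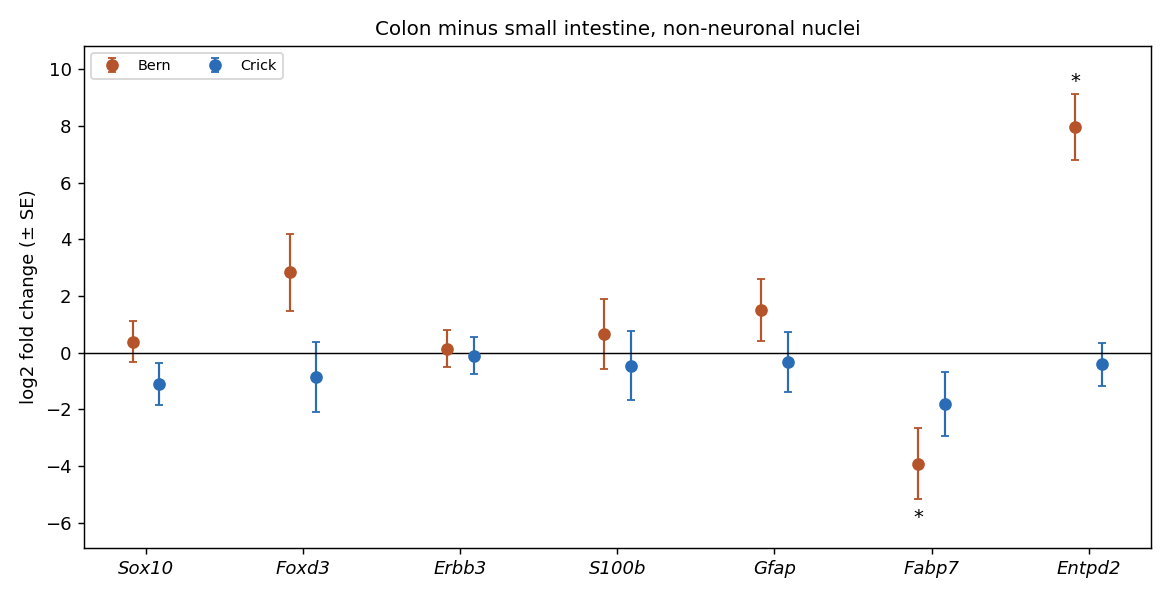
Fitted log2 fold change of colon minus SI in non-neuronal nuclei (vertical axis, bars are SE) for each member, in Bern (brown) and at the Crick (blue), 4 against 4 libraries each. Stars mark adjusted p under 0.05 by edgeR: Entpd2 at 7.95 and Fabp7 at -3.91, both in Bern.

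Among related lists, segment calls were most frequent in the nucleotide list. Of 10 tested further glia genes only Scn7a, a sodium channel gene, passed, lower in colon by -1.15 ± 0.25 (adjusted p = 0.0057, edgeR). Among the 13 extracellular nucleotide genes 5 were higher and 3 lower in colon, with P2ry4 (4.17), Entpd3 (4.09), P2ry2 (3.69) and P2rx2 (3.26 on the log2 scale) the largest. Entpd3 and P2rx2 were also higher in neuronal nuclei, and 4 of 10 pan-neuronal markers were higher in non-neuronal colon. Fabp2, the intestinal fatty acid carrier of absorptive epithelium, was lower in colon by -2.25 ± 0.51, and 5 of 10 epithelial markers were higher there. Of neuregulin and ErbB genes, Nrg1 was higher in colon by 2.17 ± 0.64 and Lrig1 lower by -0.96 ± 0.30. Of 8 filament genes, Nefl (4.12) and Prph (2.87), both made by neurons, were higher in colon and Synm (-1.11) lower. None of the 10 tested crest factors and none of the 7 tested S100 genes passed.

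The third comparison set Bern against Crick in non-neuronal nuclei, where housing and processing of the samples cannot be told apart. Entpd2 was the only member that passed (9.29% of all genes passed, 4.94% as lower), lower in Bern by -3.42 ± 0.69 on the log2 scale (adjusted p = 0.0031, edgeR). The difference lay in the SI, at -7.60 ± 1.16 (adjusted p = 0.00141; 4.44% of all genes passed), where the pooled ratio of Crick to Bern was 294 (exact 95% counting interval 52.5 to 11630). In colon it was 0.76 ± 0.76 (adjusted p = 0.77), and no member passed there (1.07% of all genes). The other 6 members differed by between -0.76 and 0.71 averaged over segments. Without Bern SI replicate 2, Gfap also passed, at -2.21 averaged (adjusted p = 0.0395) and -4.57 in SI (adjusted p = 0.0424). None of 10 tested further glia genes passed. Of 12 tested neuregulin and ErbB genes 1 was higher and 2 lower, and of 13 nucleotide genes 1 was higher and 3 lower. Nrg3 was higher in Bern (2.75) and Erbb4 lower (-4.50), while the nucleotide receptor genes P2ry4 (-4.05) and P2ry2 (-3.77) and the channel gene Panx1 (-3.48) were lower in Bern, the same side as Entpd2.

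Bern replicates differed more from each other than Crick replicates did. In colon 6 of 7 members had a larger SD of log2 CPM in Bern, as did 81.6% of all tested genes, and in SI 6 of 7 members did, as did 85.5% of all genes. For Erbb3 in SI the SD was 2.62 in Bern and 0.17 at the Crick. The exceptions were Sox10 in colon (0.63 in Bern, 0.65 at the Crick) and Entpd2 in SI, where Bern was near 0 throughout. The median over all genes was 1.07 and 1.42 in Bern colon and SI, and 0.54 and 0.50 at the Crick.

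Single Bern libraries held unlike sets of glial genes. Bern SI replicate 2 had 0.796 CPM of Sox10, 1.59 CPM of Erbb3 and no S100b or Entpd2, yet the highest Gfap (16.3 CPM) and Fabp7 (26.7 CPM) of its group. Bern SI replicate 3 showed the reverse, with 141 CPM of Erbb3 and 41.1 CPM of Sox10 but no Gfap and no S100b. Bern colon replicate 1 led all 16 non-neuronal libraries in S100b, Gfap, Foxd3 and Entpd2, and had no Fabp7. All 7 members were detected in each of the 8 Crick non-neuronal libraries, against 3 of the 8 Bern ones. Bern non-neuronal libraries detected fewer genes of any kind, 15708 to 20987 against 27375 to 35260 at the Crick, and the part of this was not tested. Summed over the 7 members the level was 48.2 to 282 CPM in Bern and 106 to 210 CPM at the Crick.

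Likeness of pattern was read over the 16 non-neuronal libraries as the mean absolute difference of log2 CPM after centring each gene on its own mean. Among the 19163 other tested genes, Erbb3 ranked 230 nearest to Sox10 (difference 0.74, beside a median of 1.33 over all genes). Foxd3 ranked 42 nearest to Gfap (0.83, median 1.56). Other pairs of members differed by more, from 1.07 upward. Ranks read otherwise in part: Gfap ranked 155 nearest to Entpd2 (1.11, median 1.98), and Sox10 ranked 613 nearest to Erbb3. From Sox10, Gfap (1.72), Foxd3 (1.41) and Entpd2 (1.77) lay farther than the median gene, and S100b (1.07) lay nearer. From Erbb3, Gfap (1.74), Foxd3 (1.62) and Entpd2 (1.63) lay farther than the median gene (1.22), and S100b (1.15) lay nearer. Fabp7 lay farther than the median gene from Sox10, Gfap, Foxd3, Erbb3 and Entpd2. From Entpd2, every member but Fabp7 lay nearer than the median gene. The gene nearest to Sox10 was Haghl (0.43), to Foxd3 Prdm6 (0.63), to S100b Pramef8 (0.45), to Gfap Lrwd1 (0.57), to Fabp7 Pkhd1l1 (0.48) and to Entpd2 Serpinf1 (0.66). No member was among the 5 nearest genes of another. These are descriptions over shared libraries, in which depth and fraction purity also vary.

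Finally, the traces of glial genes in neuronal nuclei were compared between segments and facilities. Only Sox10, S100b and Erbb3 of the 7 passed the low-count filter in the 16 neuronal libraries. None passed between colon and SI (5.51% of all 17419 genes passed) or between Bern and Crick (7.72%), by edgeR. By facility, Sox10 differed by 2.31 ± 0.93 (adjusted p = 0.13); it was the only one of the 3 with an unadjusted p under 0.05, as 23.4% of all genes had. Its traces were uneven in Bern: 0 CPM in colon replicates 2 and 3, but 12.7, 7.28, 8.81 and 14.7 CPM in colon replicates 1 and 4 and SI replicates 1 and 2. In those libraries Sox10 did not bring Erbb3 with it, since colon replicate 1 had the lowest Erbb3 of all neuronal libraries (0.384 CPM), and colon replicates 2 and 3, without Sox10, had 9.99 and 11.4 CPM.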

How the data were processed

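All values derive from the table of expected counts that the authors deposited, with a column for each of 32 libraries. Per the submitters' processing notes, RSEM 1.3.0, STAR 2.5.2 and DESeq2 1.10.1 were used on build GRCm38, with no roles given. Strand setting and annotation release are not given in the sources used here. Per the labels' protocols, the cDNA came from a NuGEN Ovation kit. Counts were rounded, and symbols, coordinates and exon lengths were taken from GENCODE M21 by identifier (51719 of 51912 found).

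Members, lists and alternatives were chosen with earlier results of these data known. Tests used edgeR 4.0.16 under R 4.3.3: TMM, filterByExpr, a mean per group, quasi-likelihood F tests, and p-values adjusted by Benjamini-Hochberg across every gene tested, at 0.05. The code was tested on simulated data. Fractions were compared in a fit of 32 libraries, segments and facilities in the 16 of a fraction. Same-numbered neuronal and non-neuronal libraries of the Crick deviated together (r 0.219 to 0.635 in SI, over 0.1 in 4 of 4 pairs; 0.0977 to 0.457 in colon, 3 of 4), a pairing read from the data, not the labels. In other sets at most 2 of 4 same-numbered pairs were over 0.1. Over all sets, 10 of 32 same-numbered pairs (up to 0.635) and 17 of 96 differently numbered pairs (up to 0.581) were over 0.1. The pairing is therefore uncertain. SE is the log2 change divided by the square root of F. All members are named; from each related list, up to 4 genes with the largest passing changes may be named. Ngfr and marker genes were named outside that rule, with values seen. Some genes that the rule would name are not reported here. Alternatives were DESeq2 1.42.0, limma-voom 3.58.1, DESeq2 size factors, no low-count filter, a replicate block, library size without mitochondrially encoded genes, omitted libraries and, within a fraction, a fit of all 32. For 0 counts over a group, the floor is 3 counts (0.127 to 0.239 CPM). Intervals and floors cover counting error only.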

Additional observations from a re-analysis of the deposited data

Results flagged for a closer look

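Levels of each member were examined in each group of 4 for a library whose gap to the nearest other was large against the range of the group (Dixon's 95% criterion). Of 54 groups with any spread, 12 held such a library. The chance rate of the criterion, about 1 in 20, assumes normally distributed values, and many of these levels rest on low counts. A library that alone held counts in its group always meets the criterion. The share among all genes was not counted, so the 12 are not read as an excess for these members.

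In non-neuronal nuclei, S100b in Bern colon replicate 1 was at 26.4 CPM, with the next library at 4.34 CPM. Bern SI replicate 2 stood out for both Gfap (16.3 CPM, next 1.08) and Fabp7 (26.7 CPM, next 3.59). Sox10 reached 52.5 CPM in Crick SI replicate 2, with the next at 28.4 CPM. Entpd2 was at 7.79 CPM in Crick colon replicate 1, under the next at 19.0 CPM, and at 33.8 CPM in Crick SI replicate 4, above the next at 19.2 CPM. The 0.360 CPM of Entpd2 in Bern SI replicate 1 is a single count beside 3 libraries at 0.

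In neuronal nuclei, Entpd2 reached 11.7 CPM in Bern colon replicate 4, with the next library at 0.487 CPM, and was at 0 in Crick colon replicate 4, under the next at 1.41 CPM. Foxd3 in Bern colon replicate 3 was at 1.53 CPM from 6 counts, with the others at 0. Sox10 in Crick SI replicate 2 was at 2.85 CPM (next 1.75), and Gfap in Crick colon replicate 2 was at 1.41 CPM (next 0.942), from 7 counts.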

How the results depend on the processing

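Over the 4 strata, the sort calls of Sox10, Gfap, Foxd3, Erbb3 and Fabp7 held under all 7 alternatives and all 32 single omissions. Entpd2 kept its calls between segments (log2 change 2.92 to 4.25, adjusted p up to 0.0295) and between facilities (-5.02 to -3.25, up to 0.0266) under 8 alternatives. Members called changed as follows. Bern colon, main 5: 3 without the libraries that stood apart, 2 to 6 under single omissions. Bern SI, main 3, all lower in neuronal nuclei: 5 with DESeq2, 5 without filter, 1 with the replicate block. In both counts of 5, Entpd2 was called in the opposite direction, higher in neuronal nuclei (3.91 and 3.88 on the log2 scale). Crick SI, main 4: 1 without the libraries that stood apart, 2 to 4 under omissions; Crick colon, main 4: 2 to 4. Segments, main 2: 1 without filter, with the block and without the libraries that stood apart, 1 to 2 under omissions. Segments within Bern, main 2: also 1 with limma-voom and without mitochondrially encoded genes. Facilities, main 1: 1 to 2 under omissions, in SI too. Sort by facility, main 0: 1 with DESeq2 or no filter; sort by segment, main 0: 0 to 1 under omissions. Segment by facility, main 0: 1 with DESeq2, no filter or 32 libraries, 0 to 1 under omissions. The cause of these changes was not tested.

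Numbers of all genes called moved more. Segments, non-neuronal, main 1787: 2948 with DESeq2, 764 without the libraries that stood apart, 2862 with 32 libraries, 1172 to 2417 under omissions (1172 without Crick non-neuronal SI replicate 1). Facilities, non-neuronal, main 1780: DESeq2 2853, limma-voom 3122, no filter 6373, replicate block 2786, without the libraries that stood apart 745, 32 libraries 3176. Within these, ranges over alternatives, then over omissions, were 617 to 3485 and 1454 to 2584 for Bern segments (main 1939), 8 to 262 and 22 to 74 for Crick segments (49), 0 to 699 and 12 to 380 for colon facilities (206), and 207 to 2271 and 94 to 1217 for SI facilities (851). Segment by facility, main 0: DESeq2 329, no filter 229, 32 libraries 114, omissions 0 to 4. Sort by segment, main 1395: DESeq2 2215. Sort by facility, main 44: DESeq2 628, no filter 473, replicate block 11, without the libraries that stood apart 143, omissions 3 to 246. Neuronal segments, main 960: DESeq2 1599, no filter 1652. Neuronal facilities, main 1344: DESeq2 2325, no filter 2155, omissions 799 to 1818 (799 without Crick neuronal SI replicate 1).

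Outside the Crick fractions, same-numbered libraries shared only a number: over 0.1 in 0 of 16 pairs in Bern and, between Crick segments, 2 of 4 neuronal and 1 of 4 non-neuronal pairs. In the Crick fractions, where most same-numbered pairs went together, the replicate block changed no member's call in either segment. With the replicate block S100b gave a log2 change of -1.38 between sorts (adjusted p = 0.0729) and Fabp7 -2.64 between segments (0.102). DESeq2 size factors shifted the median of all genes between sorts by -0.10. The share of higher calls went from 75.0% to 61.0% (DESeq2) and 59.6% (without mitochondrially encoded genes) for sort by facility, and from 38.8% to 59.3% (DESeq2) for Crick segments. Depth limits Foxd3, Fabp7 and S100b, at 323, 327 and 598 counts over 32 libraries.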
